A study of Mus musculus with 9 samples.

Results

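Abi3, Ggta1 and Rassf2 are 3 protein-coding genes whose transcripts were higher in mouse macrophages that received the inhibitor BMS303141 together with lipopolysaccharide (LPS) than in macrophages that received LPS alone. They were chosen by name, for their measured values in these same libraries, as transcripts lowered by LPS and partly restored by the inhibitor, and make up 3 of the 12204 genes listed and of the 12196 tested. The values went against that name for Ggta1, whose level with LPS overlapped that of untreated cells and whose level with BMS303141 and LPS lay above both. Abi3 and Rassf2 were lowest with LPS alone. Because the comparisons below are the ones the genes were selected on, their values are given as a description, with no p-value, and the calls below that include them support nothing beyond the selection.

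Messenger RNA was measured in 9 libraries of macrophages grown from C57/Bl6J mouse bone marrow, with 3 libraries in each of 3 groups. Cells had matured for 6 days in medium with 20% L929 supernatant, which supplies the macrophage growth factor M-CSF. One group received 50 µM BMS303141 for 1 h and then 10 ng/ml LPS for 4 h, a second received that LPS treatment without the inhibitor, and the third was untreated. LPS, a component of bacterial outer membranes, activates Toll-like receptor 4, and BMS303141 inhibits ATP-citrate lyase, the product of Acly, which cleaves citrate to supply acetyl-CoA outside mitochondria. None of the 9 libraries received BMS303141 alone, and the labels name no vehicle. The labels do not say whether the 3 libraries of a group came from separate mice or cultures, so the spread between them may be technical. All 3 groups share the strain and the growth factor source, and the labels name no genetic change.

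Abi3 encodes an Abl interactor, a subunit of the WAVE complex, through which the Rac GTPases switch on the Arp2/3 complex so that branched actin filaments form at the edge of a moving or phagocytosing cell. Ggta1 encodes the Golgi enzyme alpha-1,3-galactosyltransferase, which caps N-acetyllactosamine chains on glycoproteins with the alpha-galactose epitope of most mammals, a sugar that humans lack. Rassf2 encodes a Ras association domain protein that binds K-Ras and, through its SARAH domain, the MST kinases of the Hippo pathway, and in human tumours it is often silenced by promoter methylation.

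The sequences before RefSeq transcript starts are shown as a description only. That all 3 transcripts differed in the same direction between the inhibitor and LPS groups is how they were chosen. RefSeq's promoter table for GRCm38.p6 held 2 of the 3 genes, Ggta1 and Rassf2, and the third is Abi3. The stretch for Ggta1 covers the 250 bases before a transcript start at base 35461449 on the minus strand (chr2:35461450-35461699), with 46.0% G and C. This start lies inside the GENCODE M21 span of Ggta1, which reaches on to base 35463231 through a non-coding transcript, and no GENCODE exon overlaps the stretch. The stretch for Rassf2 covers 158 bases on the minus strand (chr2:132030417-132030574), from 250 to 93 bases before a transcript start at base 132030324, just outside the GENCODE span, without the bases that RefSeq places inside the gene, and has 55.7% G and C. Capitals mark the motif AGGAAG, a core bound by ETS family factors, or its reverse complement.
Ggta1: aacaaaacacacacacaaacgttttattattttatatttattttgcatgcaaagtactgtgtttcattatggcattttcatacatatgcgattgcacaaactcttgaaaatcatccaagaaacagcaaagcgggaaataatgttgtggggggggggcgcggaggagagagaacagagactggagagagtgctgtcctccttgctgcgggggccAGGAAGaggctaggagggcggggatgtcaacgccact
Rassf2: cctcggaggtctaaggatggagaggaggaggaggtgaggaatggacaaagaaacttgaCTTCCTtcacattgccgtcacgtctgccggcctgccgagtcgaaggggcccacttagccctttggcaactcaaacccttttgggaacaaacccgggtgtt

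Each stretch held AGGAAG once, for Ggta1 on the strand shown at position -37 and for Rassf2 on the opposite strand at position -192, counted from these transcript starts. Among 32851 promoters in the table, 29.5% held this motif on either strand within 250 bases and 19.0% within a stretch cut like that of Rassf2. Another 5 motifs, searched on both strands, had no match in either stretch. These were CACGTG (an E-box), TGANTCA (AP-1), TGACNNNGC (the core of the antioxidant response element), GAAANNGAA (interferon regulatory factors) and TGCTGAC (MAF factors). They were held by 6.02%, 6.75%, 10.2%, 7.13% and 3.81% of all promoters within 250 bases. Within a stretch cut like that of Rassf2 the shares were 3.1%, 4.27%, 5.68%, 4.71% and 2.24%. A match or its absence says only which letters lie in these windows.

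Sequencing read the 3′ ends of transcripts, and values are deposited log2 CPM, read counts scaled to the library total, after quantile normalisation by the authors. Depth estimated from the value steps was 3.56 to 3.74 M (mega) reads per library with BMS303141 and LPS, 1.83 to 3.19 M with LPS and 3.22 to 5.05 M in untreated cells. LPS replicate 1 was the shallowest, with about 25.9 reads at its median gene, and stood apart from the other LPS libraries on the second principal component (-63.1 against 1.31 and -5.48). All 11 macrophage markers searched were listed, with a summed level of 6318 to 6510 CPM with BMS303141 and LPS, 6775 to 6855 CPM with LPS and 12000 to 12470 CPM in untreated cells. Acly was at 5.07 ± 0.16 log2 CPM with BMS303141 and LPS, 5.16 ± 0.07 with LPS and 5.41 ± 0.04 in untreated cells (SD, n = 3 each). Its differences were -0.09 between the inhibitor and LPS groups (adjusted p = 0.802, limma), -0.34 between the inhibitor group and untreated cells (0.0566, and under 0.05 in 4 of the alternatives) and -0.25 between LPS and untreated cells (0.153). In bulk RNA, fewer cells that express a gene and less RNA per cell cannot be told apart.

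Abi3 (ENSMUSG00000018381) lies on chromosome 11, bases 95830074 to 95842476 of GRCm38, on the minus strand. Its level was 5.06, 4.63 and 4.95 log2 CPM in the 3 libraries with BMS303141 and LPS, 3.18, 2.65 and 3.18 with LPS alone, and 5.07, 5.11 and 4.80 in untreated cells. All 3 LPS libraries lay below the other 6, and the BMS303141-plus-LPS and untreated libraries overlapped. The group means were 4.88 ± 0.23, 3.00 ± 0.31 and 4.99 ± 0.17 log2 CPM with BMS303141 and LPS, with LPS, and in untreated cells (SD, n = 3 each). The inhibitor group was higher than the LPS group by 1.88 (SE 0.20) on the log2 scale, a 3.67-fold difference. The difference between LPS and untreated cells was -1.99 (SE 0.20), a level 0.252 times the untreated one.

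Set against the LPS fall, the share regained in the inhibitor group was 94.3% ± 11.4 on the log2 scale (SD, n = 3). It was 81.6% in the lowest library and 104% in the highest. Regained, here and below, means only where the inhibitor group lies between LPS and untreated cells. BMS303141 was given before LPS, so a level that fell and came back cannot be told from a level that did not fall. On the CPM scale, with means of 29.7 CPM with BMS303141 and LPS, 8.13 CPM with LPS and 31.98 CPM in untreated cells, the regained share was 90.2%. The difference of the inhibitor group from untreated cells was -0.11 (SE 0.20), within the spread of either group. Abi3 with LPS rested on few reads, about 15.8, 18 and 28.4 in the 3 LPS libraries, against 125, 89.0 and 109 with BMS303141 and LPS. Leaving out each of the 9 libraries in turn moved the difference between the inhibitor and LPS groups between 1.70 and 2.00 and the regained share between 89.6% and 100.6%.

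Rassf2 (ENSMUSG00000027339) lies on chromosome 2, bases 131989415 to 132030258, on the minus strand. Its level was 5.29, 4.98 and 5.32 log2 CPM with BMS303141 and LPS, 3.51, 3.79 and 4.04 with LPS, and 7.004, 6.86 and 6.63 in untreated cells. The 3 groups did not overlap, and the inhibitor group stood between LPS and untreated. Means were 5.20 ± 0.19, 3.78 ± 0.27 and 6.83 ± 0.19 log2 CPM with BMS303141 and LPS, with LPS, and in untreated cells (SD, n = 3 each). With BMS303141 and LPS the level was 2.67-fold that with LPS (difference 1.42, SE 0.17), and the difference between LPS and untreated cells was -3.05 (SE 0.17), an 8.29-fold lower level. The inhibitor group remained 3.10-fold below untreated cells (difference -1.63, SE 0.17).

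The share of the Rassf2 fall regained was 46.5% ± 6.12 on the log2 scale (SD, n = 3), between 39.5% and 50.4% in single libraries. It was 22.9% on the CPM scale, where the means were 36.9 CPM with BMS303141 and LPS, 13.9 CPM with LPS and 114.5 CPM in untreated cells. How much of the fall was regained depended on the scale for Rassf2 more than for Abi3. About 20.1, 40.4 and 52.1 reads lay behind the LPS values and 146, 114 and 141 behind those with BMS303141 and LPS. Leaving out single libraries gave 1.29 to 1.55 for the difference between the inhibitor and LPS groups and 44.0% to 50.0% for the regained share.

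Ggta1 (ENSMUSG00000035778) lies on chromosome 2, bases 35400179 to 35463231, on the minus strand. Its level was 7.44, 7.41 and 7.57 log2 CPM with BMS303141 and LPS, 5.77, 5.66 and 5.77 with LPS, and 5.72, 5.76 and 5.97 in untreated cells. The 3 inhibitor libraries lay above all others, and the LPS and untreated libraries overlapped. The group means were 7.48 ± 0.08, 5.73 ± 0.06 and 5.82 ± 0.14 log2 CPM with BMS303141 and LPS, with LPS, and in untreated cells (SD, n = 3 each), or 178, 53.2 and 56.5 CPM. BMS303141 with LPS was 3.35-fold above LPS (difference 1.74, SE 0.12) and 3.16-fold above untreated cells (difference 1.66, SE 0.12). LPS differed from untreated by -0.08 (SE 0.12), and by 0.04 when libraries were centred on ribosomal protein genes, so there was no fall of which a share could be regained. Values rested on about 651, 618 and 676 reads with BMS303141 and LPS and on 99.0, 150 and 174 reads with LPS.

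**Figure D1:**
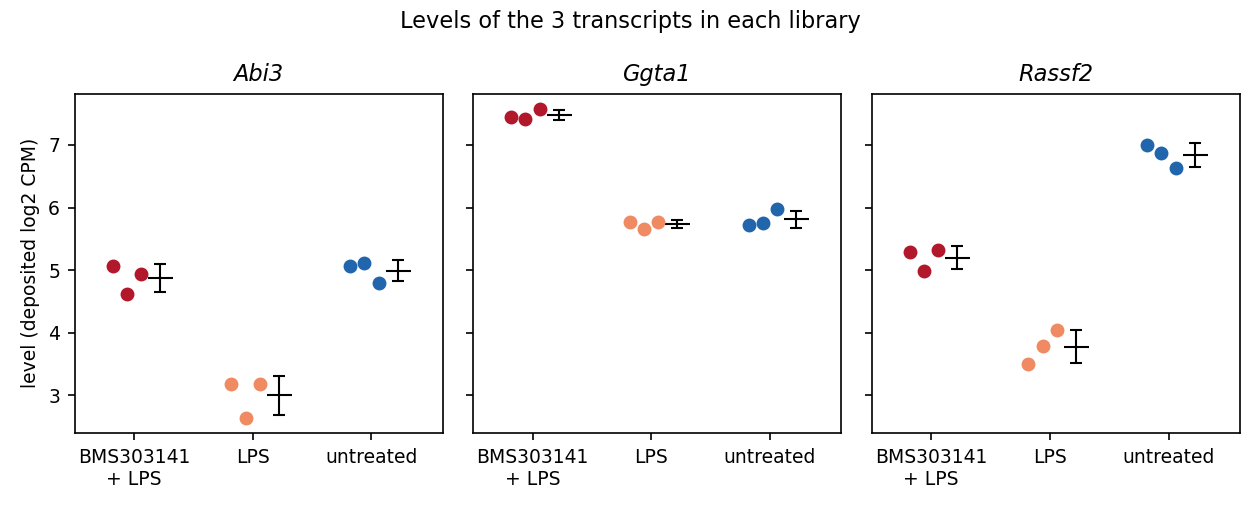
Level of Abi3, Ggta1 and Rassf2 in each of the 9 libraries, in deposited log2 CPM (y axis), by group (x axis), with the group mean ± SD (n = 3) to the right of its points. The inhibitor group meets the untreated one for Abi3 (4.88 and 4.99), lies above both others for Ggta1 (7.48) and lies between LPS and untreated for Rassf2 (5.20).

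Across all 12196 tested genes, 117 (0.959%) were called higher and 141 (1.16%) lower with BMS303141 and LPS than with LPS, at an adjusted p under 0.05 in limma. The 3 genes are among those called higher, which is how they were picked. Ranked by size, Abi3 had the 35th highest, Ggta1 the 48th highest and Rassf2 the 114th highest difference of that comparison. Between LPS and untreated cells 2628 genes (21.5%) were called higher and 3102 (25.4%) lower, with Abi3 and Rassf2 among the lower ones and Ggta1 in neither set. With BMS303141 and LPS against untreated cells 2627 (21.5%) were higher and 3120 (25.6%) lower, with Ggta1 among the higher, Rassf2 among the lower and Abi3 in neither. Altogether 52 of the 12196 tested genes were called both lower with LPS than in untreated cells and higher with BMS303141 and LPS than with LPS. They are 52 of the 117 called higher and of the 3102 (25.4%) called lower, and 2 of the 3 genes, Abi3 and Rassf2, were among them. The comparisons share libraries, and the LPS libraries enter those 2 with opposite sign, so these calls are not independent of each other.

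The profiles of the 3 genes over the 9 libraries resembled each other to different degrees. Pearson's r was 0.856 between Abi3 and Rassf2 (Spearman's rho 0.867), 0.480 between Abi3 and Ggta1 (rho 0.15) and -0.00162 between Ggta1 and Rassf2 (rho 0.0333). Each r is over the same 9 libraries, and the 3 libraries of a group share their treatment. Abi3 and Rassf2 were chosen for the same order of groups, so a high r between them follows from the choice. Among the genes compared for likeness below, Rassf2 ranked 48th in r with Abi3, and Abi3 ranked 605th in r with Rassf2.

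Besides Abi3, the list of WAVE complex genes held 10 genes, 7 of them tested. None of the 7 was called higher or lower with BMS303141 and LPS than with LPS in limma. Of all tested genes 0.959% were called higher and 1.16% lower, so 0 calls among 7 genes says little about this list. At an unadjusted p under 0.05, 1 gene, Abi1, was lower. The share of all tested genes at that unadjusted cut was not counted, here or for the lists below. The median difference was -0.09 beside -0.004 over all tested genes. Abi1, the paralog that holds the same place in the complex, was at 8.20 ± 0.04 log2 CPM with BMS303141 and LPS, 8.54 ± 0.12 with LPS and 7.68 ± 0.16 in untreated cells (SD, n = 3 each). Its difference of -0.34 between the inhibitor and LPS groups missed the threshold (adjusted p = 0.153, limma), though it passed with weights per library (adjusted p = 0.0444). LPS raised Abi1 by 0.86 (SE 0.11, adjusted p = 2.3e-05, limma), opposite in sign to the Abi3 difference. Abi2, the third paralog, had a difference of -0.09 (adjusted p = 0.896, limma) between the inhibitor and LPS groups and of 0.24 (adjusted p = 0.425) between LPS and untreated cells.

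LPS against untreated cells called 2 of the 7 WAVE genes higher and 1 lower, with a median of -0.10, or 0.01 under ribosomal protein centring, which left none lower. Without LPS replicate 1, 2 were lower and the median was 0.005. With all libraries, 21.5% of all tested genes were higher and 25.4% lower in this comparison, with a median of -0.06. Cyfip1, the subunit that binds Rac, was higher with LPS by 0.41 (SE 0.12, adjusted p = 0.0128, limma), a call lost without untreated replicate 1 (adjusted p = 0.0590) or without the mean trend (0.0587). Of the Rac GTPases and Arp2/3 genes, 16 of 17 were tested. None was called between the inhibitor and LPS groups in limma, beside 0.959% higher and 1.16% lower of all tested genes. At an unadjusted p under 0.05 there were 0 genes, and the median was 0.04, or -0.03 under ribosomal protein centring. With LPS against untreated cells 1 was higher and 5 were lower (2 and 4 without LPS replicate 1). Rac2, the Rac GTPase of blood cells, rose with LPS by 1.52 (SE 0.14, adjusted p = 1.42e-06, limma), and Wipf1, which binds the actin regulator WASP, fell by 1.87 (SE 0.17, adjusted p = 9.74e-07). With BMS303141 and LPS these 2 genes differed from LPS by -0.07 and 0.07 (adjusted p = 0.850 and 0.875).

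Beside Ggta1, the list of enzymes that extend or cap glycan ends held 26 genes, 17 of them tested. St3gal3 alone was called lower with BMS303141 and LPS than with LPS and none was higher, beside 1.16% and 0.959% of all tested genes. At an unadjusted p under 0.05 (limma) 0 were higher and 3 lower. The median difference was 0.04, or -0.04 under ribosomal protein centring. St3gal3 adds sialic acid to galactose, the sugar that Ggta1 also caps, and was at 3.85 ± 0.22 log2 CPM with BMS303141 and LPS, 4.86 ± 0.24 with LPS and 1.76 ± 0.07 in untreated cells (SD, n = 3 each). Its difference of -1.01 (SE 0.21) had an adjusted p of 0.0229 (limma), which became 0.0665 without LPS replicate 1, 0.0677 without LPS replicate 3, 0.124 without BMS303141-plus-LPS replicate 1 and 0.121 without replicate 3 of that group. LPS against untreated cells called 5 of the 17 higher and 9 lower, beside 21.5% and 25.4% of all tested genes. The median was -0.92 beside -0.06 over all tested genes. St3gal1, another sialyltransferase, rose by 2.68 with LPS (SE 0.14, adjusted p = 4.74e-09, limma), and B3gnt8, which lengthens lactosamine chains, fell by 3.47 (SE 0.23, adjusted p = 3.89e-08).

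Genes of N-glycan processing and of nucleotide sugar supply showed no call between the inhibitor and LPS groups in limma. Of all tested genes 0.959% were called higher and 1.16% lower. In each of the 2 lists 2 genes were higher and 1 was lower at an unadjusted p under 0.05. No share of all tested genes was counted at that cut. Among N-glycan processing genes 13 of 14 were tested, and the median difference was 0.06, or -0.02 under ribosomal protein centring. The branching enzymes Mgat4a and Mgat5 differed by -0.41 (adjusted p = 0.173, limma) and -0.03 (adjusted p = 0.956) between these groups. With weights per library Mgat4a was called lower (adjusted p = 0.0411) and, of the nucleotide sugar genes, Cmas was called higher (difference 0.39, adjusted p = 0.033). With LPS against untreated cells Mgat4a rose by 1.57 (adjusted p = 6.49e-07) and Mgat5 fell by 2.00 (adjusted p = 1.65e-06), and 1 gene of the list was higher and 3 were lower (2 and 3 without LPS replicate 1, 2 and 2 under ribosomal protein centring). All 17 genes of nucleotide sugar supply were tested, none was called between the inhibitor and LPS groups (median 0.17), and 6 were lower and none higher with LPS than in untreated cells (7 and 2 at an unadjusted p under 0.05, limma). That count was 2 lower and 1 higher under ribosomal protein centring, and 5 lower and 2 higher without LPS replicate 1. Without these changes, 21.5% of all tested genes were higher and 25.4% lower with LPS than in untreated cells. Cmas, which activates sialic acid, fell by 1.72 with LPS (SE 0.13, adjusted p = 1.29e-07, limma). For Slc35a1, which carries the activated sugar into the Golgi, the difference was -1.19 (SE 0.30, adjusted p = 0.00548). Cmas and Slc35a1 serve the supply of sialic acid and not of the galactose that Ggta1 adds.

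Rassf2 was set against the rest of its family, of which 6 of 9 genes were tested. Rassf4 was called lower with BMS303141 and LPS than with LPS and none was higher, beside 1.16% and 0.959% of all tested genes. The median over the 6 was 0.30 (1 higher and 1 lower at an unadjusted p under 0.05, limma). Rassf4, the closest relative of Rassf2 in structure among those tested, was at 9.57 ± 0.05 log2 CPM with BMS303141 and LPS, 10.13 ± 0.15 with LPS and 8.404 ± 0.16 in untreated cells (SD, n = 3 each). The Rassf4 order was thus the reverse of the Rassf2 order, with differences of -0.56 (SE 0.11, adjusted p = 0.0178, limma) for the inhibitor and LPS groups and 1.73 (SE 0.11, adjusted p = 2.48e-08) for LPS and untreated cells. The first of these calls was lost under ribosomal protein centring (adjusted p = 0.112), without the mean trend (0.126), without LPS replicate 3 (0.0555) and without BMS303141-plus-LPS replicate 1 (0.0881), replicate 2 (0.0547) or replicate 3 (0.1).

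Rassf3 and Rassf5, like Rassf2, were lower with LPS than in untreated cells. Rassf3 was at 2.65 ± 0.24 log2 CPM with BMS303141 and LPS, 2.34 ± 0.49 with LPS and 6.17 ± 0.31 in untreated cells (SD, n = 3 each), a difference of -3.84 between LPS and untreated (adjusted p = 5.57e-08, limma) and of 0.32 between the inhibitor and LPS groups (adjusted p = 0.614). For Rassf5, which binds Ras and the MST kinases, these differences were -1.61 (adjusted p = 7.73e-05) and 0.57 (adjusted p = 0.275). Rassf1 had a difference of 0.29 between the inhibitor and LPS groups (adjusted p = 0.351, limma) and of 0.10 between LPS and untreated cells (adjusted p = 0.581). Rassf6 was on the list and not among the listed genes.

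Of the Hippo kinases and targets, 15 of 21 were tested. None was called between the inhibitor and LPS groups in limma, beside 0.959% higher and 1.16% lower of all tested genes. At an unadjusted p under 0.05, 1 was higher, and the median was 0.01, or -0.07 under ribosomal protein centring. However, 1 was called higher without LPS replicate 1 and 1 with weights per library. With LPS against untreated cells 8 were higher and 5 lower, beside 21.5% and 25.4% of all tested genes. The median was 0.32, beside -0.06 over all tested genes. Sav1, the scaffold of the MST kinases, rose by 2.19 (SE 0.21, adjusted p = 1.61e-06, limma), and Taok3, a kinase upstream of them, fell by 1.49 (SE 0.09, adjusted p = 2.27e-08). The difference between the inhibitor and LPS groups was -0.31 for Sav1 (adjusted p = 0.528) and 0.14 for Taok3 (adjusted p = 0.527).

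**Figure D2:**
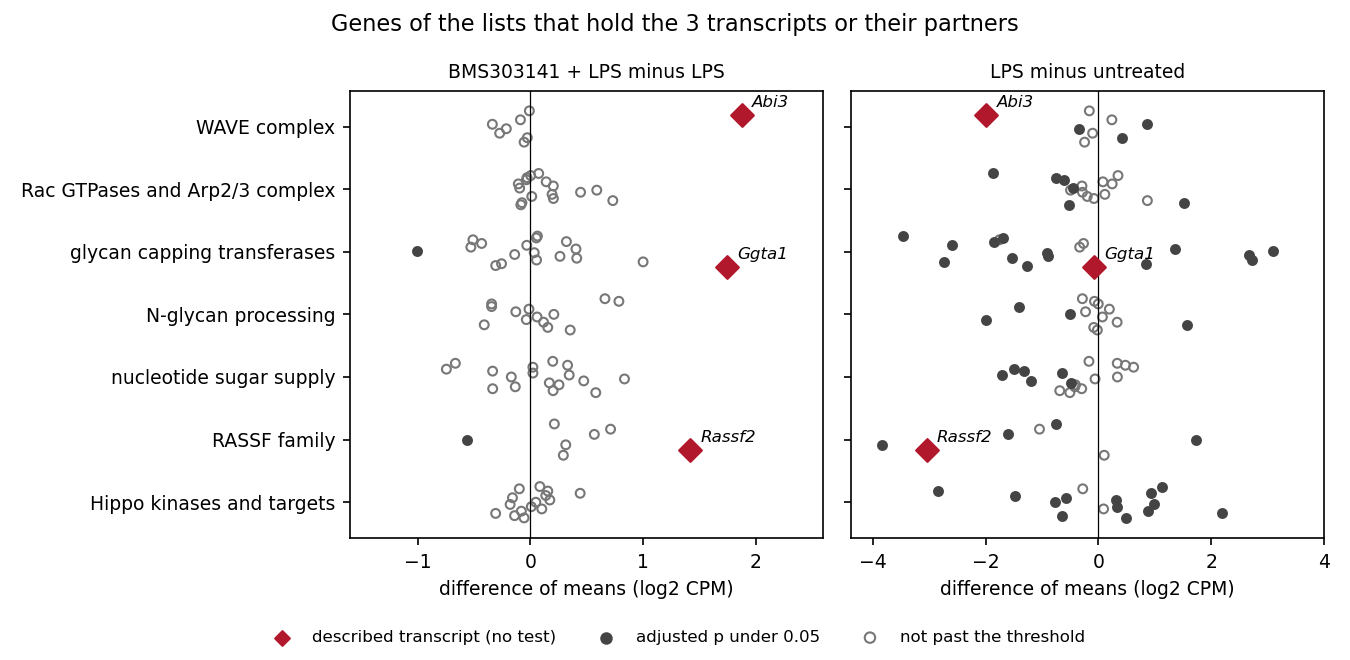
Differences of group means in log2 CPM (x axes) for the genes of 7 lists (rows), BMS303141 with LPS minus LPS on the left and LPS minus untreated on the right; diamonds are the 3 described genes, filled circles other genes with an adjusted p under 0.05 and open circles the rest. On the left, Abi3 (1.88), Ggta1 (1.74) and Rassf2 (1.42) lie to the right of every other gene of these lists, and only St3gal3 and Rassf4 are filled. The 3 genes were chosen for high values of this difference and the others were not, so their place on the left follows from the choice.

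The genes whose profile over the 9 libraries was most like each of the 3 were taken from 5627 tested genes, those whose mean level reached the median, leaving out predicted genes with Gm or Rik symbols. For Abi3 they were Fcgr3 (r = 0.958), a low-affinity receptor for IgG, Tmbim1 (r = 0.952), Plin2 (r = 0.942), a coat protein of lipid droplets, Tmem65 (r = 0.942) and Kdm7a (r = 0.941), a histone demethylase. Plin2 was at 8.39 ± 0.14 log2 CPM with BMS303141 and LPS, 6.87 ± 0.40 with LPS and 9.13 ± 0.06 in untreated cells (SD, n = 3 each). Fcgr3 was at 8.77 ± 0.19, 7.84 ± 0.14 and 8.63 ± 0.22 log2 CPM in the same groups, so that its inhibitor and untreated libraries had close means, as for Abi3.

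For Ggta1 the 5 genes were Hmox1 (r = 0.970), which encodes heme oxygenase 1, Hilpda (r = 0.960), a lipid droplet protein that inhibits lipolysis, Ugdh (r = 0.949), which makes UDP-glucuronic acid, Mettl14 (r = 0.949), a subunit of the mRNA adenosine methyltransferase, and Cyth3 (r = 0.941), an exchange factor for ARF GTPases. Hmox1 was at 9.47 ± 0.25 log2 CPM with BMS303141 and LPS, 7.71 ± 0.13 with LPS and 7.30 ± 0.21 in untreated cells, and Hilpda at 6.08 ± 0.14, 4.396 ± 0.17 and 3.95 ± 0.31 (SD, n = 3 each). Ugdh and Mettl14 were also highest with BMS303141 and LPS but had a smaller range. They were at 4.74 ± 0.07 and 4.57 ± 0.05 with BMS303141 and LPS, at 4.34 ± 0.06 and 4.27 ± 0.08 with LPS and at 4.29 ± 0.02 and 4.33 ± 0.04 in untreated cells.

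For Rassf2 they were the long non-coding RNA Neat1 (r = 0.991), which builds paraspeckles, Zfp36l1 (r = 0.990), which promotes decay of AU-rich mRNAs, and the transcription factors Bcl6 (r = 0.989), Mef2d (r = 0.987) and Irf8 (r = 0.987). Zfp36l1 was at 6.10 ± 0.17 log2 CPM with BMS303141 and LPS, 3.99 ± 0.29 with LPS and 7.73 ± 0.24 in untreated cells, and Irf8 at 7.01 ± 0.17, 5.91 ± 0.02 and 7.96 ± 0.06 (SD, n = 3 each). The choice of these genes moved with the measure of likeness. With Spearman's correlation 0 of the 5 genes for Abi3, 1 for Ggta1 and 1 for Rassf2 were chosen again, and without LPS replicate 1 the numbers were 1, 4 and 1. Every r is a description over 9 libraries that share treatments within groups.

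**Figure D3:**
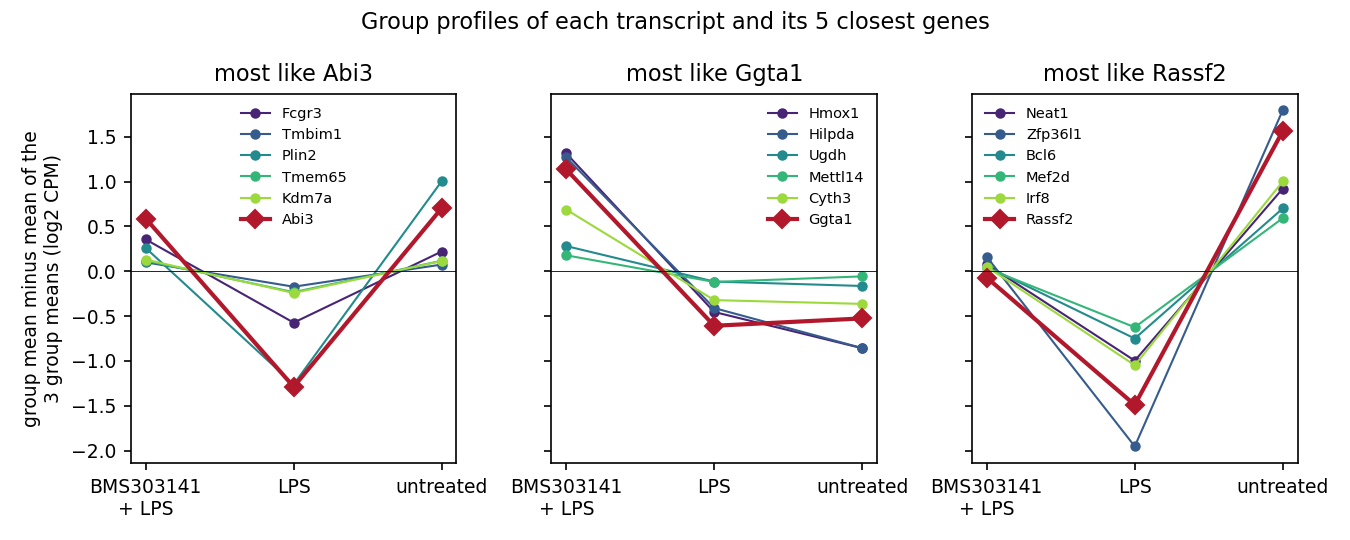
Group means of each described gene (diamonds) and of the 5 genes most like it (circles), as the difference from the mean of its 3 group means in log2 CPM (y axis), for the 3 groups (x axis). The lowest point is LPS in the panels of Abi3 and Rassf2, while in the panel of Ggta1 the highest point is BMS303141 with LPS.

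The Abi3 span is overlapped by 3 genes of the opposite strand in the GENCODE M21 annotation, which bears on 3′ end counts. Zfp652 overlaps it by 5042 bases, Phospho1 by 2067 bases and Gngt2 by 5261 bases, and the 3′ ends of Zfp652 and Phospho1 lie 5041 and 2066 bases from the 3′ end of Abi3, inside its span. The 3′ end of Gngt2 lies 15660 bases from that of Abi3, outside the Abi3 span. The kit keeps the strand, but the strand setting of the counting is not given in the sources used here, so reads of overlapping genes cannot be told apart with certainty. Phospho1 was not among the listed genes. Zfp652, a zinc finger gene, was at 4.41 ± 0.14 log2 CPM with BMS303141 and LPS, 3.86 ± 0.27 with LPS and 5.82 ± 0.18 in untreated cells (SD, n = 3 each). Gngt2, a G protein gamma subunit, was at 5.80 ± 0.24, 5.15 ± 0.38 and 6.52 ± 0.22 log2 CPM in the same groups.

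Both neighbours were lowest with LPS, as Abi3 was. The differences between LPS and untreated cells were -1.96 for Zfp652 (SE 0.18, adjusted p = 9.58e-07, limma) and -1.38 for Gngt2 (SE 0.19, adjusted p = 6.2e-05). Between the inhibitor and LPS groups, where Abi3 differed by 1.88, the difference was 0.55 for Zfp652 (SE 0.18, adjusted p = 0.155) and 0.65 for Gngt2 (SE 0.19, adjusted p = 0.116). Weights per library took both past the threshold (adjusted p = 0.005 and 0.0076), and so did leaving out LPS replicate 1 for Gngt2 (difference 0.84, adjusted p = 0.0275). What part these genes have in the Abi3 counts was not tested.

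**Figure D4:**
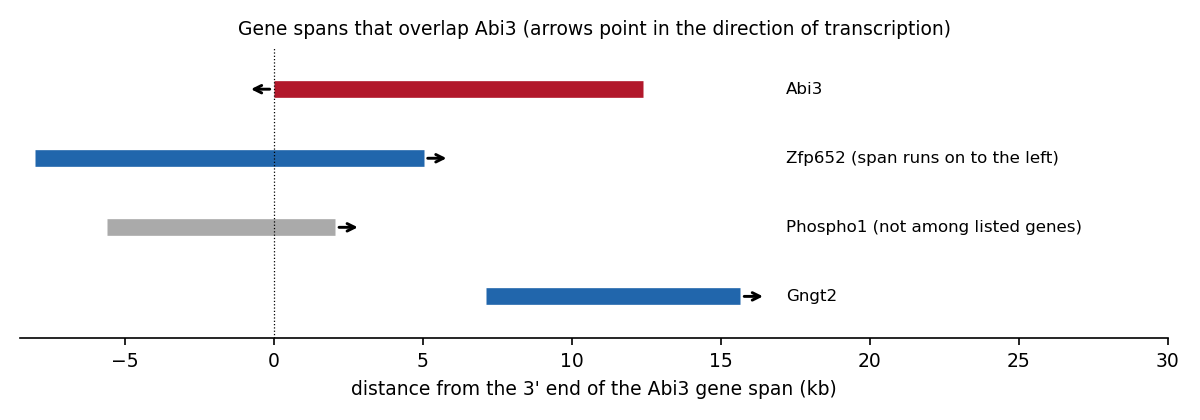
Spans of Abi3 and of the 3 genes that overlap it, drawn to scale by distance in kb from the 3′ end of Abi3 (x axis), with arrows in the direction of transcription; the span of Zfp652 runs on past the left edge. Zfp652 and Phospho1 end inside the Abi3 span, 5041 and 2066 bases from its 3′ end.

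Within 100 kb of Ggta1 3 of 11 annotated genes were listed, and within 100 kb of Rassf2 2 of 6. Gm43761, a predicted gene of 991 bases inside the Ggta1 span and on its strand, was at 3.84 ± 0.62 log2 CPM with BMS303141 and LPS, 2.47 ± 0.64 with LPS and 1.86 ± 0.49 in untreated cells (SD, n = 3 each). Its difference between the inhibitor and LPS groups was 1.36 (SE 0.39, adjusted p = 0.104, limma), and 1.72 without LPS replicate 1 (adjusted p = 0.0308). Its span shares bases and strand with Ggta1, so its reads and those of unspliced Ggta1 transcripts cannot be told apart. Gsn and Stom, the other listed genes within 100 kb of Ggta1, differed by 0.44 (adjusted p = 0.505) and -0.49 (adjusted p = 0.250) between the same groups, and Prnp and Slc23a2, the listed genes within 100 kb of Rassf2, by -0.26 (adjusted p = 0.670) and -0.06 (adjusted p = 0.899).

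Markers of other cell types were looked up beside these results. Of 8 neutrophil markers 2 were listed, S100a8 and S100a9, with a sum of 172 to 264 CPM with BMS303141 and LPS, 33.9 to 60.9 CPM with LPS and 7.81 to 29.6 CPM in untreated cells, while Ly6g, Mpo, Elane, Cxcr2, Camp and Ltf were not among the listed genes. S100a8, which encodes a calcium-binding protein of myeloid cells, was called higher by 2.29 with BMS303141 and LPS than with LPS (SE 0.34, adjusted p = 0.00377, limma, and 0.0564 without the mean trend). Of 7 dendritic cell markers only Itgax was listed, at 4.77 to 5.36 CPM with BMS303141 and LPS, 13.5 to 22.5 CPM with LPS and 3.05 to 4.19 CPM in untreated cells (difference -1.68 between the inhibitor and LPS groups, adjusted p = 0.00587, limma). Hdc was the 1 listed of 4 mast cell and basophil markers, at 60.5 to 77.2, 106 to 118 and 2.21 to 2.59 CPM in these groups. Of 7 lymphocyte markers 1 was listed, at no more than 7.53 CPM in any library, of 6 stromal markers 3, with a sum of at most 15.3 CPM, and of 4 erythroid markers none.

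Genes that follow RNA quality and handling, 4 mitochondrial and 4 immediate early genes, summed to 2457 to 2719 CPM with BMS303141 and LPS, 1538 to 2293 CPM with LPS and 2935 to 3790 CPM in untreated cells. Of the 8, only Jun was called higher with BMS303141 and LPS than with LPS, by 0.64 (adjusted p = 0.0268, limma), beside 0.959% of all tested genes. This call was lost under ribosomal protein centring and without the mean trend. With LPS against untreated cells 6 were lower, beside 25.4% of all tested genes. The order of these sums, lowest with LPS, is also the order of Abi3 and Rassf2 across the groups. The part of cell mixture, depth and RNA quality in the levels of the 3 genes was not tested.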

How the data were processed

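Poly(A) RNA of 9 libraries was read at transcript 3′ ends from 100 ng of total RNA with the QuantSeq forward kit and 16 PCR cycles, per the labels' protocols. STAR 2.5.2b, featureCounts 1.5.1, MultiQC, limma, edgeR and GRCm38 (mm10) are named in the submitters' processing notes, with no roles. The deposited values are recorded as a score: log2 CPM, quantile-normalised across libraries by the authors, as read from the values, whose powers of 2 sum to 987472 to 987498 in each library. Such values hide a change common to most transcripts. Depth was estimated from their steps, so read numbers are approximate.

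Of 12204 identifiers 12181 matched a symbol in GENCODE M21. Genes with a log2 CPM of 0 or more in 3 or more libraries were tested (12196, with 8 removed). One limma 3.58.1 model (R 4.3.3) with a mean per group and a mean trend gave two-sided p-values, Benjamini-Hochberg adjusted over all tested genes and called under 0.05. SE is its moderated standard error. Counts at an unadjusted p under 0.05 are given for gene lists only, with no share of all tested genes beside them. The steps were run on simulated data with far fewer changed genes than were called between LPS and untreated cells. That run does not vouch for the calls given here.

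The 3 genes, 15 gene lists and all rules were chosen with earlier results of these data known. Genes named are the 3, Acly, paralogs, list genes with the smallest p (up to 3 called between the inhibitor and LPS groups, and 2 between LPS and untreated), the 5 most correlated genes of each, listed genes within 100 kb and the most abundant marker of each list; Jun was named after its values were seen. Alternatives were a replicate block, other filters, 2 centrings, no mean trend, library weights, only the groups compared and leaving out each library.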

Additional observations from a re-analysis of the deposited data

How the results depend on the processing

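The values of Abi3, Ggta1 and Rassf2 stayed within the spread between libraries under both centrings. When single libraries were left out, the difference between the inhibitor and LPS groups ran from 1.70 to 2.00 for Abi3. For Ggta1 it ran from 1.695 to 1.775, and for Rassf2 from 1.29 to 1.55. Leaving out 1 of 3 libraries cannot move a group mean by as much as the SD of that group, so these ranges are no test of stability. The Abi3 level with LPS rests on about 15.8 to 28.4 reads per library. The count of genes called between BMS303141 with LPS and LPS, 258 in all, was the one that moved most, to 99 without the mean trend and to 814 with library weights, and between 62 (without BMS303141-plus-LPS replicate 3) and 318 (without untreated replicate 3) when each library was left out; it was 160 without LPS replicate 3, 79 and 143 without BMS303141-plus-LPS replicates 1 and 2. The cause was not tested. Centring on 75 ribosomal protein genes moved the median LPS minus untreated difference of all genes from -0.06 to 0.06. It changed the calls to 2783 higher and 2322 lower between LPS and untreated cells, against 2628 and 3102, and to 55 higher and 118 lower between the inhibitor and LPS groups, against 117 and 141.

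After group means were subtracted, the correlation of same-numbered libraries of different groups ran from -0.297 to 0.165. For differently numbered libraries it ran from -0.215 to 0.294. With 3 libraries a group, these values cannot show whether the replicate numbers in the titles pair the libraries. With a replicate block 208 genes were called between the inhibitor and LPS groups (95 higher, 113 lower), and St3gal3 had an adjusted p of 0.0521. Hdc (difference -0.70, adjusted p = 0.0319, limma) and Mef2d also lost that call under the block (0.0575 and 0.0548). The RNA quality list had 0 in place of 1 gene called, and Gm43761 gained a call (0.0254). Hdc also lost its call without the mean trend (0.0757), without LPS replicate 2 (0.109) or 3 (0.112) and without any BMS303141-plus-LPS replicate (0.0725 to 0.188). Mef2d lost its call under ribosomal protein centring (0.128) and without the mean trend (0.0699). It did so too without LPS replicate 2 or 3 or any BMS303141-plus-LPS replicate (0.0595 to 0.152). Pseudocounts were not run, because the values are already on a log2 scale.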
